A study of Bos taurus with 24 samples.

Results

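SOX2, POU5F1, NANOG and KLF4 encode transcription factors of the pluripotency network, and 3 of these 4 genes were measured in 24 RNA-seq libraries of bovine oocytes. The genes were taken by symbol from a table of 11306 listed genes, of which 9526 exceeded 0.1 FPKM in at least 1 library. SOX2, POU5F1 and KLF4 all passed that filter, and NANOG was not analysed here. SOX2 was chosen on its difference between summer and spring in the MII oocytes of these same libraries. Its values in every comparison that rests on that difference are therefore given as a description with no test.

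SOX2 is an HMG-box factor that binds DNA next to OCT4, the POU-domain factor encoded by POU5F1. Together with the homeobox factor NANOG they hold cells of the inner cell mass and embryonic stem cells in an unspecialised state, and KLF4 is a zinc finger factor that can reprogram somatic cells in their company. A fully grown oocyte transcribes little, so the RNA of these genes in oocytes is largely a maternal store. That store is translated, re-tailed or degraded until the embryo transcribes its own genome.

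The oocytes were collected by ovum pick-up from non-lactating, non-pregnant Angus-based beef cows in May (spring) or July (summer). The series' design text gives 6 cows, and the study's methods describe a larger herd. In the germinal vesicle (GV) stage the oocyte is immature, with an intact nucleus, and in metaphase II (MII) it has matured and extruded a polar body. The 4 groups were GV and MII oocytes of spring and GV and MII oocytes of summer, with 6 libraries each, and 4 oocytes of 1 animal were pooled for each library. MII oocytes matured in culture, outside the cow, in both seasons, and cumulus cells were stripped from all oocytes before freezing. Each season is 1 calendar month here, so season and month cannot be told apart. The numbers of the libraries are not tied to cows by the labels, and p-values measure the spread between these pools.

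The number of fragments behind each value was recovered from the table. After 0.01 was subtracted, 98.6% of 46741 held-out low values came within 0.1 of a whole number of fragments when each gene's value was multiplied by its listed length from start to stop. A share of 20% would be whole by chance. For genes whose listed length is over 50000 bases and is mostly intron, the share was 99.4%. The values had thus been divided by the whole gene, introns included, although they are named FPKM (fragments scaled by exon length and library size). An FPKM value is accordingly compared here between libraries for 1 gene, and not between genes as a number of transcripts. Summed over genes, the libraries held an estimated 324653 (spring GV replicate 6) to 28207676 fragments (summer GV replicate 5) in listed genes. Group medians lay between 3294977 and 4392114. In 3 libraries under 70% of reads were mapped: spring GV replicate 6, summer GV replicate 2 and spring MII replicate 6. Those libraries are named below wherever they carry a value.

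Oocyte and cumulus cell markers were checked first. Of 21 oocyte markers, 14 were in the table, and none of these had a median at the lowest value of 0.01. Of 25 cumulus cell markers, 23 were in the table, and 5 had their median at that value. FSHR, the FSH receptor of granulosa and cumulus cells, was at the lowest value in 21 of the 24 libraries, and AMH in 15. Other markers of the list were present throughout: STAR and KRT8 were over 1 FPKM in all 24 libraries and PTGS2 in 20. The summed level of the cumulus cell markers ranged from 39.8 to 593 FPKM in spring GV, 36.0 to 127 in summer GV, 35.9 to 167 in spring MII and 27.8 to 86.9 in summer MII oocytes. It was highest in spring GV replicate 6 at 593 FPKM, where KRT8 and KRT18 had their highest values, 146 and 392 FPKM. Spring GV replicate 3, at a sum of 236 FPKM, had the highest values of AMH (13.4 FPKM), VIM (75.7), HSD17B1 (39.5), INHA (37.2) and GJA1 (15.6).

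SOX2 lies on chromosome 1 from 85933316 to 85934783 on the minus strand of UMD3.1.1, a length of 1467 bases with no intron, inside the longer noncoding gene SOX2-OT. Reads of that gene's RNA within this interval could not be told apart from those of SOX2. SOX2 was detected in all 24 libraries, with 24 to 471 fragments each and 3470 in all. In spring MII oocytes its FPKM was 25.8, 7.11, 23.2, 29.1, 10.1 and 22.5 in replicates 1 to 6. In summer MII oocytes it was 9.96, 4.40, 11.6, 10.8, 10.6 and 3.16. Of the spring libraries, 4 were above every summer library, and 2, replicates 2 and 5, fell within the summer range. Of the summer libraries, 2, replicates 2 and 6, were below every spring library.

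**Figure D1:**
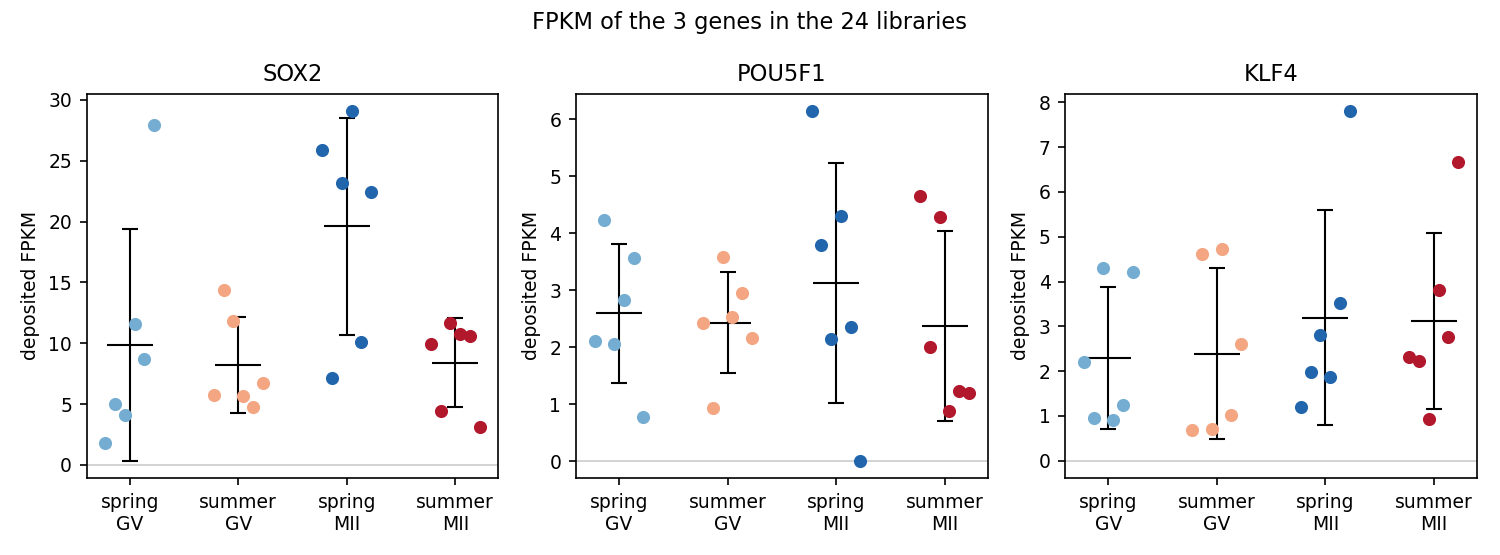
Deposited FPKM (y axis, linear) of SOX2, POU5F1 and KLF4 in each library (points) of the 4 groups (x axis), with black bars for the mean ± SD of 6 libraries. SOX2 in spring MII oocytes averaged 19.6 FPKM with 4 libraries over 20, while the groups overlap throughout for POU5F1 and KLF4.

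The mean SOX2 level was 19.6 ± 8.91 FPKM (SD, n = 6) in spring MII and 8.41 ± 3.65 FPKM (SD, n = 6) in summer MII oocytes, a ratio of 0.429. On the log2(FPKM + 1) scale the difference was -1.10 with a standard error of 0.40, and no test is given because the gene was chosen on it. Across all genes, 4 of 9526 (0.042%) met an unadjusted limma p under 0.05 with a change over 2-fold in this comparison, and none had an adjusted p under 0.05, while 201 had an unadjusted p under 0.05. SOX2 lies just inside that 2-fold line. It fell to the other side when spring MII replicate 1 (-0.99), spring MII replicate 4 (-0.96), summer MII replicate 2 (-0.96) or summer MII replicate 6 (-0.89) was left out. Without spring MII replicate 6, the poorly mapped library of this pair of groups, it was -1.03. Counted per 1000000 fragments in listed genes, a measure that does not use gene length, the median of SOX2 was 59.0 in spring and 29.7 in summer MII oocytes.

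In spring GV oocytes SOX2 was 1.78, 5.01, 4.11, 11.6, 8.73 and 27.9 FPKM in replicates 1 to 6. In summer GV oocytes it was 5.77, 14.4, 11.8, 5.66, 4.76 and 6.70 FPKM. All summer GV values lay within the spring range. The highest GV value, 27.9 FPKM in spring replicate 6, rested on 24 fragments, with an exact 95% Poisson interval of 17.9 to 41.5 FPKM, in the shallowest library, the one with the highest cumulus marker sum. The part of these measures in that value was not tested. The group means were 9.86 ± 9.51 FPKM (SD, n = 6) in spring and 8.19 ± 3.95 FPKM (SD, n = 6) in summer.

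In GV oocytes SOX2 did not pass the test between seasons. The log2 fold change was 0.06 (standard error 0.49, 95% interval -0.99 to 1.12, limma adjusted p = 1, exact permutation p = 0.913, two-sided). It was 0.26 over the well mapped libraries, those with 70% or more of their reads mapped. None of the 3 genes was called in this comparison, where 3 of 9526 genes (0.0315%) were called and none had an adjusted p under 0.05. At an unadjusted limma p under 0.05 there were 148 genes. The interval includes a 2-fold rise in summer, and its lower end lies at about a 2-fold fall.

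**Figure D2:**
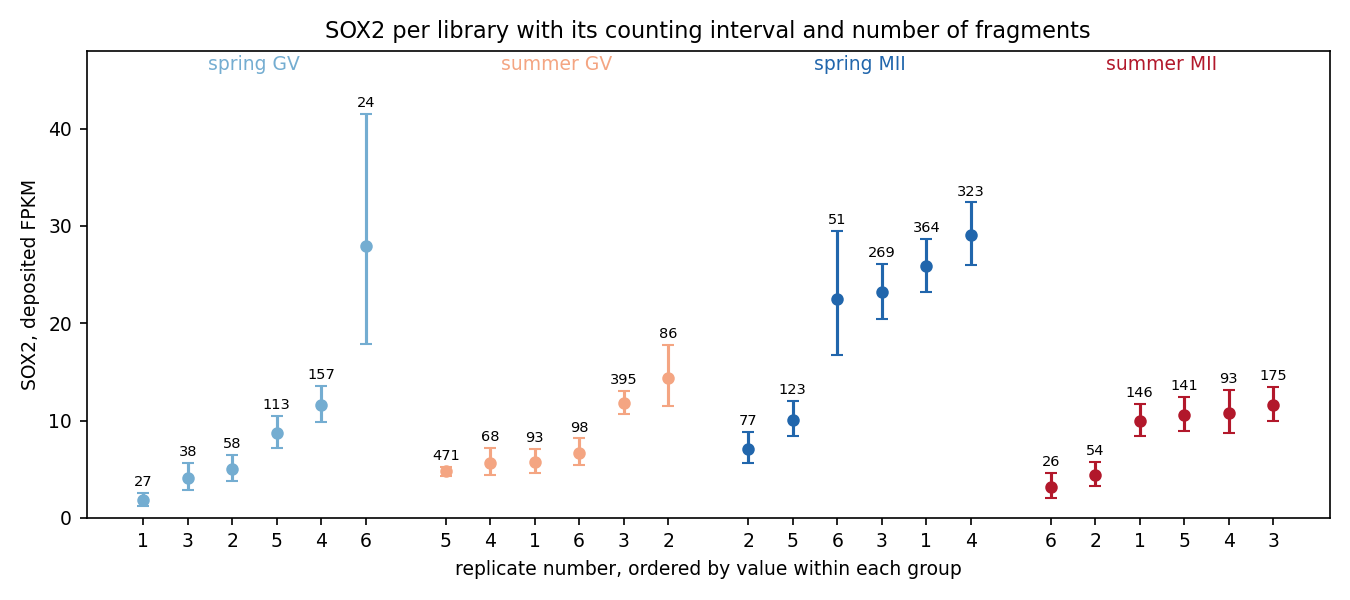
SOX2 FPKM (y axis) of each library, ordered by value within its group (x axis, replicate number), with exact 95% Poisson intervals as bars and the number of fragments above each. The 4 highest spring MII libraries (22.5 to 29.1 FPKM) and spring GV replicate 6 stand above 20 FPKM, and the interval of the latter, from 24 fragments, is the widest.

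Counting error was smaller than the spread between pools. The variance of SOX2 between libraries of a group was 16.3 to 49.0 times that expected from counting alone. For POU5F1 the corresponding values were 9.77 to 40.9, and for KLF4 24.8 to 99.8. These intervals and ratios cover counting error of fragments, which after amplification are not independent molecules.

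Between stages, SOX2 was 1.99 times higher by group means in spring MII than in spring GV oocytes, a log2 difference of 1.18 with a standard error of 0.52. By medians the spring ratio was 3.32. Without the poorly mapped spring GV replicate 6 the ratio of means was 3.14 and the log2 difference 1.54. In summer the ratio was 1.03 by means and 1.65 by medians, and the log2 difference was 0.02 with a standard error of 0.35. Without summer GV replicate 2 the ratio of means was 1.21. Per 1000000 fragments in listed genes, SOX2 had medians of 25.8 in GV and 59.0 in MII oocytes in spring, with means of 31.1 and 56.8. In summer its medians were 22.7 and 29.7, and its means 26.25 and 25.1. The mean listed length of a library's genes, which enters FPKM but not this measure, had higher medians in MII oocytes. They were 4.83 kb in GV and 5.71 kb in MII oocytes in spring, and 4.78 and 5.95 kb in summer. The change from GV to MII differed between the seasons by -1.16 (summer minus spring) with a standard error of 0.65. These 3 comparisons include the MII libraries on which the gene was chosen and carry no test. Markers moved in the last of them too: 13 of 14 oocyte markers were lower, with a median of -0.63, and 13 of 18 cumulus cell markers higher, with a median of 0.24, beside -0.03 over all genes. ZP2, an egg coat protein, was called in it at -1.21 (limma adjusted p = 1). The part of these markers in the SOX2 value was not tested. Above 20 FPKM there were 4 of the MII libraries, all of spring, and 1 of the GV libraries.

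Averaged over both seasons, SOX2 did not pass the test between MII and GV oocytes. With 6 libraries in every group, this average leaves the seasonal difference out of the estimate. The spread used by the test still holds the difference between seasons in the stage change of SOX2, -1.16. Its standard error and p-values are therefore not free of the choice of SOX2, and no conclusion is drawn from them. SOX2 ranged from 1.78 to 27.9 FPKM in the 12 GV libraries, with a median of 6.23. In the 12 MII libraries it ranged from 3.16 to 29.1 FPKM, with a median of 10.7. The log2 fold change was 0.60 (standard error 0.34, 95% interval -0.10 to 1.30, limma adjusted p = 0.15, two-sided permutation p = 0.107 over all 853776 assignments within seasons). The unadjusted limma p was 0.0895. Without spring GV replicate 6 the log2 fold change was 0.74, and over the well mapped libraries it was 0.80. It was 0.71 without summer GV replicate 2 and 0.73 without summer MII replicate 6. Groups are unequal in these fits, so the seasonal difference on which SOX2 was chosen enters them in part. They carry no test, and none of them reached a 2-fold change. By contrast 1098 of 9526 genes (11.5%) were called between MII and GV oocytes over both seasons, 265 higher and 833 lower in MII, and none of the 3 genes was among them.

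**Figure D3:**
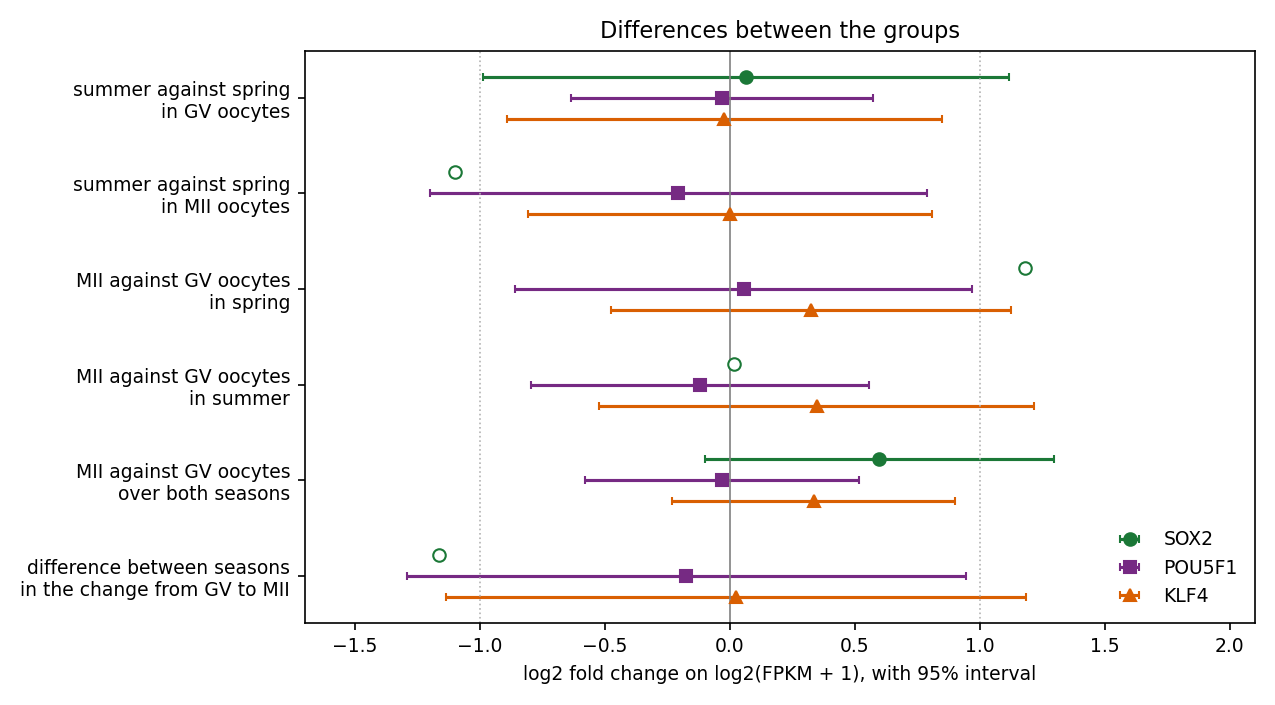
Log2 fold changes on log2(FPKM + 1) (x axis) of SOX2, POU5F1 and KLF4 in 6 comparisons (y axis), with 95% limma intervals as bars for tested values and dotted lines at a 2-fold change. Open symbols without bars are SOX2 values given with no test. Every drawn interval includes 0, and that of SOX2 over both seasons is not free of the choice of SOX2.

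POU5F1, which encodes OCT4, lies on chromosome 23 from 27769893 to 27774393 on the plus strand, over 4500 bases. Processed copies of this gene exist in mammalian genomes, and how shared reads were counted was not given in the sources used here, so its level is uncertain in that respect. Its FPKM was 2.11, 4.23, 2.05, 2.83, 3.56 and 0.77 in spring GV replicates 1 to 6. In summer GV oocytes it was 2.43, 0.94, 3.57, 2.53, 2.95 and 2.17 FPKM. The lowest library of each group, spring replicate 6 with 2 fragments and summer replicate 2 with 17 fragments, was a poorly mapped one.

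In spring MII oocytes POU5F1 was 6.14, 3.8, 2.14, 4.29 and 2.36 FPKM in replicates 1 to 5. Replicate 6 had 0 fragments, for which the exact 95% Poisson interval at its depth reaches up to 0.529 FPKM. In summer MII oocytes POU5F1 was 4.65, 2.0, 4.27, 0.88, 1.23 and 1.19 FPKM. In that spring library 1 POU5F1 fragment is worth 0.143 FPKM, and SOX2 and KLF4 had 51 and 49 fragments there. The groups overlapped, and the SD of FPKM was larger over the 12 MII libraries (1.85) than over the 12 GV libraries (1.02).

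Group means of POU5F1 were 2.59 ± 1.23 FPKM (SD, n = 6) in spring GV, 2.43 ± 0.88 in summer GV, 3.12 ± 2.11 in spring MII and 2.37 ± 1.67 in summer MII oocytes. POU5F1 was not called in any of the 6 comparisons. Between seasons its log2 fold change was -0.03 in GV oocytes (95% interval -0.64 to 0.57, limma adjusted p = 1) and -0.21 in MII oocytes (95% interval -1.20 to 0.79, limma adjusted p = 1). The latter was -0.57 without spring MII replicate 6, where the gene had no fragment. MII against GV oocytes gave 0.06 in spring (95% interval -0.86 to 0.97, limma adjusted p = 0.928), where 1126 of 9526 genes (11.8%) were called. In summer it gave -0.12 (95% interval -0.79 to 0.56, limma adjusted p = 0.802), where 1092 of 9526 genes (11.5%) were called. Without replicate 6 of spring MII the spring value was 0.42, and scaling by medians of ratios turned it to -0.09.

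KLF4 lies on chromosome 8 from 98843683 to 98847741 on the minus strand, over 4058 bases. Its FPKM was 2.19, 0.95, 4.30, 0.92, 1.24 and 4.21 in spring GV replicates 1 to 6. In summer GV oocytes it was 0.68, 4.605, 0.71, 4.73, 1.01 and 2.60 FPKM. Within each GV group 2 libraries stood above 4 FPKM: spring replicates 3 and 6 and summer replicates 2 and 4.

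In spring MII oocytes KLF4 was 1.19, 1.98, 2.81, 1.86, 3.53 and 7.81 FPKM in replicates 1 to 6. In summer MII oocytes it was 2.33, 2.22, 0.92, 3.81, 2.77 and 6.67 FPKM. Replicate 6 was the highest of each MII group, on 49 fragments in spring and 152 in summer. Group means were 2.30 ± 1.58 FPKM (SD, n = 6) in spring GV, 2.39 ± 1.90 in summer GV, 3.20 ± 2.40 in spring MII and 3.12 ± 1.97 in summer MII oocytes.

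KLF4 was not called in any of the 6 comparisons. Its log2 fold change between seasons was -0.02 in GV oocytes (95% interval -0.89 to 0.85, limma adjusted p = 1) and 0.00 in MII oocytes (95% interval -0.81 to 0.81, limma adjusted p = 1). MII against GV oocytes gave 0.32 in spring (limma adjusted p = 0.518), 0.35 in summer (limma adjusted p = 0.539) and 0.34 over both seasons (95% interval -0.23 to 0.90, limma adjusted p = 0.319). With quantile normalization the last was 0.53, at an unadjusted limma p of 0.0305. Per 1000000 fragments in listed genes, the KLF4 mean was 21.3 in GV and 23.6 in MII oocytes in spring. In summer it was 20.5 in GV and 23.5 in MII oocytes. The change from GV to MII differed between the seasons by -0.17 for POU5F1 and 0.02 for KLF4, each at a limma adjusted p of 1. In that comparison 20 of 9526 genes (0.21%) were called, none at an adjusted p under 0.05 and 171 at an unadjusted p under 0.05.

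By mean level, SOX2 followed the order spring MII, spring GV, summer MII and summer GV. By medians summer MII, at 10.3 FPKM, stood above spring GV at 6.87 FPKM. Without spring GV replicate 6 the spring GV mean fell to 6.25 FPKM, below that of summer GV. The order below spring MII thus rests on that library, and the neighbouring means there, 1.45 and 0.224 FPKM apart, were closer than their pooled SD of 7.20 and 3.80 FPKM. POU5F1 followed the order spring MII, spring GV, summer GV and summer MII, and KLF4 the order spring MII, summer MII, summer GV and spring GV. No neighbouring groups of either gene differed by more than their pooled SD.

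POU5F1 and KLF4 moved in opposite directions from pool to pool. Libraries with high POU5F1 had low KLF4 at both stages. In the 12 GV libraries Pearson's r of their log2(FPKM + 1) was -0.74 (permutation p = 0.00361, adjusted 0.0124) and Spearman's coefficient -0.62 (permutation p = 0.0348, adjusted 0.119). In the 12 MII libraries r was -0.87 (permutation p = 0.00019, adjusted 0.00224) and Spearman's coefficient -0.82 (permutation p = 0.00197, adjusted 0.0213). Without the 2 libraries farthest from the median KLF4 level, r was -0.78 in GV and -0.78 in MII libraries. Over the well mapped libraries it was -0.63 in 10 GV and -0.79 in 11 MII libraries. These are 2 of 24 relations computed, chosen after the data had been seen, and p-values were adjusted over the 24. The 24 include the relations to mean listed length and those of SOX2 in MII libraries, which are given below with no test. Small p-values among the length relations can lower the other adjusted p-values.

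The same libraries differed in how much of the transcriptome was detected. POU5F1 was lower where more listed genes were at the lowest value, with r -0.83 in GV (permutation p = 0.00116, adjusted 0.00557) and -0.84 in MII libraries (permutation p = 0.00054, adjusted 0.00324). Spearman's coefficient was -0.77 in GV (permutation p = 0.0048, adjusted 0.0254) and -0.80 in MII libraries (permutation p = 0.00266, adjusted 0.0213). Without the 2 libraries farthest from the median share, r was -0.83 in GV and -0.66 in MII libraries, and over the well mapped libraries it was -0.43 and -0.70. The share of genes at the lowest value ran from 2.80% in summer GV replicate 5 to 27.8% in spring MII replicate 6, and its part in the relation of POU5F1 to KLF4 was not tested.

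KLF4 ran the other way. Against that share its r was 0.64 in GV (permutation p = 0.00796, adjusted 0.0208) and 0.78 in MII libraries (permutation p = 0.00185, adjusted 0.0074). Its Spearman coefficient was 0.60 (permutation p = 0.0431, adjusted 0.129) and 0.52 (permutation p = 0.0902, adjusted 0.216). Without the 2 farthest libraries r was 0.68 in GV and 0.34 in MII libraries, so the MII relation rests on those 2. Over the well mapped libraries r was 0.54 in GV and 0.66 in MII libraries, with Spearman coefficients of 0.49 and 0.37. KLF4 in MII libraries also followed the summed cumulus cell markers, with r 0.75 (permutation p = 0.00552, adjusted 0.0166) and Spearman's coefficient 0.67 (permutation p = 0.0202, adjusted 0.0809), and 0.65 without the 2 farthest. For POU5F1 against these markers in GV libraries r was -0.69 (permutation p = 0.0173, adjusted 0.0346). Spearman's coefficient was -0.27 (permutation p = 0.391, adjusted 0.524), and r was -0.17 over the well mapped libraries. The part of cumulus cells in either gene was not tested. The genes were also set against the mean listed length of the genes that the fragments came from (a harmonic mean). All libraries have the same summed FPKM, so this length is a multiplier inside every FPKM value. The part built in this way is positive, so positive coefficients are partly built in and negative ones run against it. All are given with no test. In MII libraries r was -0.86 for POU5F1 and 0.88 for KLF4, with Spearman coefficients of -0.81 and 0.76. Without the 2 farthest libraries r was -0.71 and 0.67. In GV libraries the r of POU5F1 with that length was -0.77 and its Spearman coefficient -0.42. It rested on 2 libraries, without which r was 0.07. For SOX2 in GV libraries r was 0.71 and the Spearman coefficient 0.41, and r was 0.48 without the 2 farthest. In bulk pools, fewer cells of a type and less RNA per cell cannot be told apart.

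**Figure D4:**
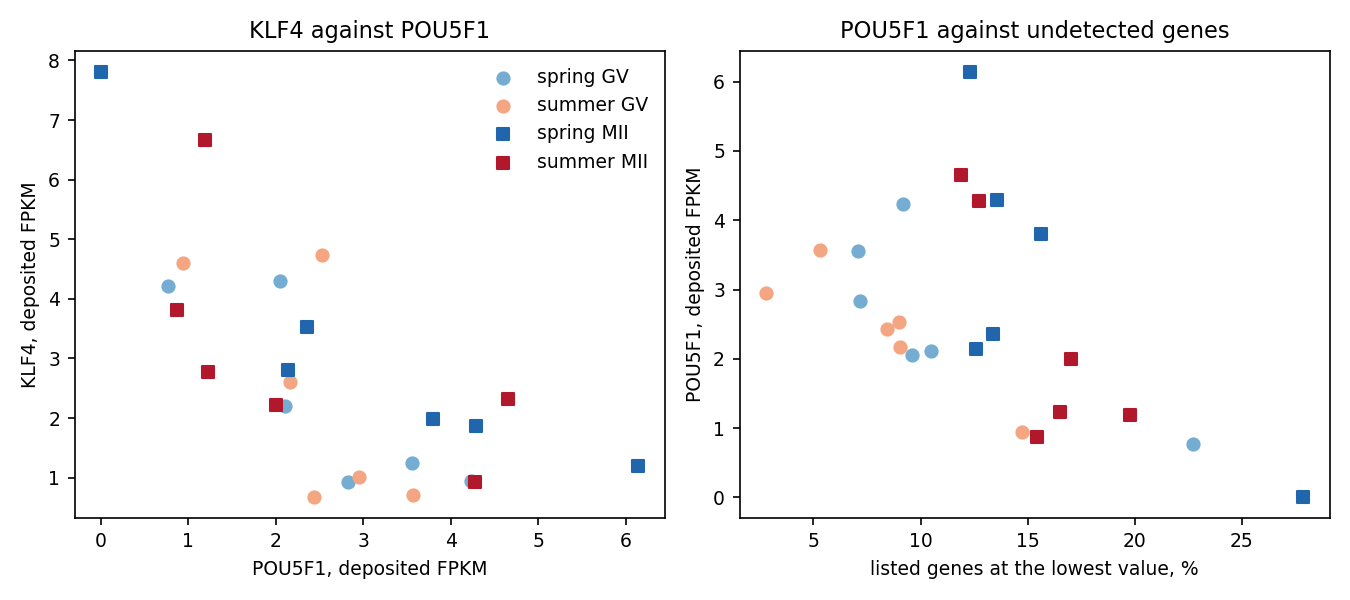
Left, KLF4 against POU5F1 (both deposited FPKM), and right, POU5F1 FPKM against the percentage of listed genes at the lowest value, with 1 point per library, circles for GV and squares for MII oocytes. High KLF4 goes with low POU5F1 (r of log2(FPKM + 1) -0.74 in GV and -0.87 in MII libraries), and the library at 27.8% of genes undetected has no POU5F1 fragment.

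In GV libraries no relation of SOX2 to either gene passed the adjusted threshold, and in MII libraries, on which SOX2 was chosen, the coefficients carry no test. Against POU5F1 the r of SOX2 was -0.45 in GV libraries (permutation p = 0.141, adjusted 0.189) and the Spearman coefficient -0.14 (permutation p = 0.667, adjusted 0.763). In MII libraries they were 0.15 and 0.28. Without the 2 libraries farthest in POU5F1, r turned to 0.48 in GV and was 0.36 in MII libraries. Against KLF4 the r of SOX2 was 0.15 in GV libraries (permutation p = 0.646, adjusted 0.674) and the Spearman coefficient -0.02 (permutation p = 0.956, adjusted 0.956). In MII libraries they were -0.22 and -0.27, and without the 2 farthest libraries r was 0.09 in GV and -0.24 in MII. Over the well mapped libraries the r of SOX2 was 0.48 in GV and 0.49 in MII libraries against POU5F1, and -0.42 and -0.53 against KLF4. Against the share of genes at the lowest value it was 0.54 in GV (adjusted permutation p = 0.108) and -0.12 in MII libraries. Spearman's coefficient was 0.07 and -0.39. Without the 2 farthest libraries r was -0.09 and -0.64, and over the well mapped ones -0.46 and -0.77. The median share was 13.5% in spring MII and 16.0% in summer MII oocytes. Its part in the SOX2 difference between seasons was not tested.

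The genes whose pattern over the 24 libraries was most like each of the 3 were sought among 3664 genes with a mean of at least 1 FPKM, after the mean of each stage was subtracted. For POU5F1 they were CST3, which encodes the protease inhibitor cystatin C, with r 0.91, FDX1L, a mitochondrial ferredoxin, with r 0.91, and EDF1, a transcriptional coactivator, with r 0.91. For KLF4 they were EEF1A1, a translation elongation factor, with r 0.93, CMAS, a sialic acid enzyme, with r 0.92, and BTG1, an antiproliferative factor, with r 0.92. The closest genes to SOX2 were less alike: RNASEK with r 0.73, the bHLH factor TCF15 with r 0.71 and the splicing factor U2AF1 with r 0.71. These likenesses are descriptions over libraries that differ in depth and detection.

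Of 31 other pluripotency factors, 12 were in the table, and none was called between seasons at either stage. Of all genes tested, 0.0315% in GV and 0.042% in MII oocytes were called between seasons. With so few calls, a short list without one says little about its members. On the log2(FPKM + 1) scale a gene under 1 FPKM in every library could not be called between seasons or between stages. Several of the lists here and below hold such genes. DPPA3, also called STELLA, is a maternal factor that protects the methylation of the zygote. Its FPKM was 218 ± 103 (SD, n = 6) in spring GV, 249 ± 56.7 in summer GV, 507 ± 104 in spring MII and 566 ± 117 in summer MII oocytes. DPPA3 rose from GV to MII by 1.33 on the log2 scale in spring (limma adjusted p = 0.00927) and by 1.19 in summer (limma adjusted p = 0.000813).

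SALL4, a zinc finger partner of OCT4, rose in spring by 1.28 on the log2 scale (limma adjusted p = 0.0147), from 1.46 ± 0.867 to 5.35 ± 3.33 FPKM (SD, n = 6). In all, 2 of the 12 were called in spring, 1 in summer and 1 over both seasons, all higher in MII. The 1 gene over both seasons is 8.33% of the list, beside 11.5% of all genes tested, and the 2 in spring stand beside 11.8%. The median log2 fold change of the 12 over both seasons was 0.02, beside -0.03 over all genes tested. MYC, the partner of SOX2, OCT4 and KLF4 in reprogramming, had a median at the lowest value in each of the 4 groups. NR0B1, also called DAX1, had group medians between 10.4 and 15.2 FPKM. LIN28A, NODAL, DPPA4, NR5A2 and OTX2 had medians under 0.1 FPKM in every group. These values are divided by the whole gene and do not rank the genes: NR5A2 had 764 fragments over the 24 libraries and NODAL 51.

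**Figure D5:**
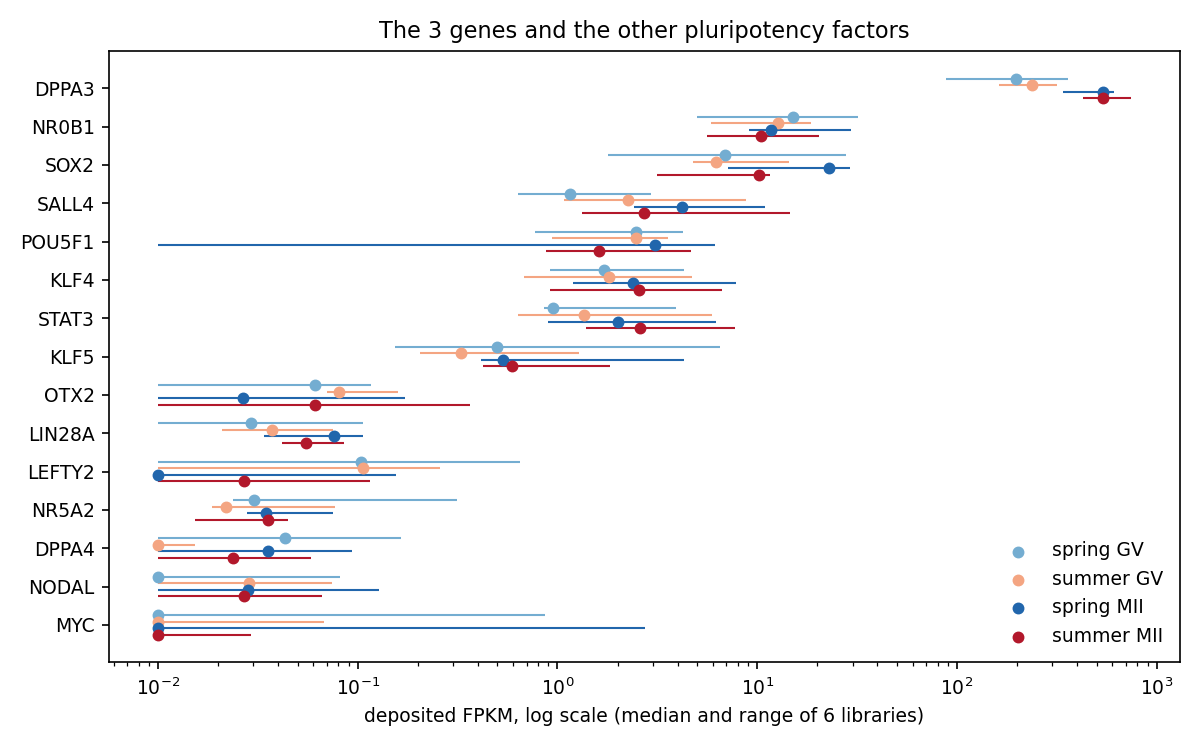
Deposited FPKM (x axis, log scale) of SOX2, POU5F1, KLF4 and the 12 other pluripotency factors in the table (y axis), with points for the group median and lines for the range of 6 libraries; levels are comparable between groups but not between genes. DPPA3 has MII medians of 537 and 538 FPKM, and SOX2 is highest in spring MII oocytes at a median of 22.8 FPKM.

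Chromatin proteins that work with OCT4 and SOX2 were represented by 19 of 25 genes. None of them was called between seasons, beside 0.0315% of all genes in GV and 0.042% in MII oocytes. WDR5, a core subunit of histone H3 methyltransferase complexes that binds OCT4, fell from 11.2 ± 6.42 FPKM (SD, n = 6) in spring GV to 2.36 ± 0.699 FPKM in spring MII oocytes, with a log2 fold change of -1.72 (limma adjusted p = 0.00316). In summer it fell from 14.0 ± 3.13 to 2.21 ± 1.0 FPKM, with a log2 fold change of -2.27 (limma adjusted p = 2.56e-05). DPY30, another subunit of these complexes, rose from 16.2 ± 4.16 to 35.3 ± 9.93 FPKM in summer, with a log2 fold change of 1.07 (limma adjusted p = 0.00484). The other 17 genes were not called between stages, and some of them stayed under 1 FPKM in every library, where no call was possible. The 2 called genes are 10.5% of the 19, beside 11.5% of all genes tested, and 9 of the 19 had a limma adjusted p under 0.05 over both seasons. Over both seasons 14 of the 19 were higher in MII, with a median of 0.12 beside -0.03 over all genes tested.

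Among relatives of the 3 genes, 5 of the SOX family, 7 of the KLF family and 5 of the POU family passed the filter. None was called between seasons, beside 0.0315% of all genes in GV and 0.042% in MII oocytes. SOX15, an HMG-box relative of SOX2, fell from 16.6 ± 13.3 FPKM (SD, n = 6) in summer GV to 4.61 ± 1.64 FPKM in summer MII oocytes, with a log2 fold change of -1.40 (limma adjusted p = 0.0264). In that comparison 1 of 5 SOX genes (20%) was called, beside 11.5% of all genes. KLF11 was called higher in MII in spring, by 1.02 on the log2 scale at an unadjusted limma p of 0.0206, and its adjusted p was 0.0707. That is 1 of 7 KLF genes (14.3%), beside 11.8% of all genes. No POU family gene was called between stages, where those under 1 FPKM in every library could not be. Of the 8 factors of the first embryonic lineages that passed the filter, none was called in any of the 6 comparisons. The same limit between stages and between seasons held for some of these factors. Beside them, 11.5% to 11.8% of all genes were called between stages and 0.0315% to 0.21% in the other comparisons.

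Among the cell markers, HAS2 was called higher and HSD17B1 lower in MII over both seasons, of 18 cumulus cell markers tested, or 11.1% beside 11.5% of all genes. Of the 14 oocyte markers, 2 were called higher, DPPA3 among them, and 2 lower, ZAR1 and NLRP5, in MII over both seasons, or 28.6% beside the same 11.5%. None was called between seasons at either stage, beside 0.0315% of all genes in GV and 0.042% in MII oocytes. Of the 15 immediate early genes tested, none was called in any of the 6 comparisons, where 0.0315% to 11.8% of all genes were called. Their summed level was highest in spring GV replicate 6 at 335 FPKM and spring MII replicate 6 at 279 FPKM.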

How the data were processed

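Trimmed reads were aligned by the authors to the bovine assembly UMD3.1.1 with STAR 2.5.3a, after Smart-seq2 amplification and Nextera XT libraries, and deposited as 1 FPKM table for all 24 libraries. The deposited FPKM sum to 86768.1 to 86768.2 in each library and are never under 0.01, which stands for 0 fragments. Whole fragments were recovered from steps between low values in Python 3.11.15, and exact Poisson intervals were computed at 95%.

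The 3 genes, the gene lists and the tests were chosen with earlier results of these data known. Differences were tested on log2(FPKM + 1) with limma 3.58.1 in R 4.3.3, with a spread trended on mean expression, over all 9526 genes above 0.1 FPKM in at least 1 library. Calls needed an unadjusted p under 0.05 and a change over 2-fold, the study's thresholds. The change was taken on log2(FPKM + 1), so a gene under 1 FPKM in every library could not be called between seasons or between stages. Benjamini-Hochberg adjusted p-values over all 9526 genes are given beside the calls. Exact permutation tests used the 924 assignments of 6 and 6 libraries, whose smallest two-sided p is 0.00216, or all assignments within seasons. Correlations used 100000 permutations. The 3 genes and the summed cumulus cell markers entered them as log2(FPKM + 1), and the other library measures as they stand. Named are the 3 genes, the called genes of each list (at most 3 per comparison, smallest p first) and the 3 most similar genes to each. Other genes (KRT8, KRT18, FSHR, AMH, STAR, PTGS2, VIM, INHA, GJA1, MYC, NR0B1, LIN28A, NODAL, DPPA4, NR5A2, OTX2) were named after their values were seen.

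Alternatives were pseudocounts of 0.1 and none, no filter, a mean of at least 1 FPKM, quantile normalization, median-of-ratios scaling, only libraries with 70% or more of their reads mapped, the replicate number as a block, all 4 groups in 1 fit, and leaving out each library. A limma-voom fit of the recovered fragments was added after seeing the data. The fits and the recovery were tested on simulated data.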

Additional observations from a re-analysis of the deposited data

Results flagged for a closer look

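KLF4 in spring MII oocytes had 1 library far from the others: replicate 6 at 7.81 FPKM, on 49 fragments, with a gap to the next library of 0.647 of the group's range, beyond Dixon's 95% critical value for 6 libraries. That library was 1 of the 3 with under 70% of reads mapped, had 27.8% of listed genes at the lowest value and had no POU5F1 fragment. The part of these measures in the KLF4 value was not tested. Both ends of 12 groups of libraries were examined in this way, and chance marks about 1 in 20 groups. SOX2 in spring GV replicate 6, at 0.624, lay just under the limit.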

How the results depend on the processing

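The number of tested genes called, 0 in each of the 6 comparisons, was the same under every alternative. SOX2 in MII oocytes between seasons lay between -1.21 and -1.01 on the log2 scale over the alternatives, and between -1.34 and -0.89 with each library left out. Small differences changed sign without passing the test. SOX2 between seasons in GV oocytes was -0.0198 with median-of-ratios scaling. POU5F1 between seasons in MII oocytes was 0.0303 with a pseudocount of 0.1 and 0.56 with none. POU5F1 between stages in spring was -0.26 and -0.80 with these pseudocounts, -0.0898 with median-of-ratios scaling and -0.49 with voom, and with quantile normalization it was 0.13 in summer and 0.20 over both seasons. The contrast of its stage changes between seasons was 0.0507 and 0.57 with the pseudocounts. KLF4 between seasons in MII oocytes was -0.0016 and -0.0034. The cause was not tested. With each library left out, SOX2 between seasons in GV oocytes ran from -0.25 to 0.43, and POU5F1 from -0.22 to 0.12 (seasons, GV), -0.15 to 0.42 (stages, spring), -0.30 to 0.0226 (stages, summer), -0.13 to 0.14 (stages, both seasons) and -0.54 to 0.0290 (difference between seasons). KLF4 ran from -0.21 to 0.14 (seasons, GV), -0.20 to 0.25 (seasons, MII) and -0.18 to 0.27 (difference between seasons). The stage difference of SOX2 over both seasons was 0.84 with quantile normalization, at an unadjusted limma p of 0.0119. The p-values of this difference, here and below, are not free of the choice of SOX2.

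Over all genes the counts moved more. Calls between seasons in GV and MII oocytes, 3 and 4 in the report, were 37 and 23 with a pseudocount of 0.1, 116 and 102 with none, and 148 and 159 with voom, 14 in GV oocytes with all 4 groups in 1 fit, 6 with quantile normalization or median-of-ratios scaling in GV oocytes, and, in MII oocytes, 9 over well mapped libraries and 2 with median-of-ratios scaling. Calls between stages in spring and summer, 1126 and 1092, were 2628 and 2521, 3536 and 3592, and 3965 and 3845 in the first 3 of these settings. Calls between stages over both seasons, 1098, were 2680, 4160 and 4260, and those between seasons in the stage change, 20, were 96, 191 and 192, and 12 with median-of-ratios scaling. With voom the median of all genes was -0.49 between stages in spring, -0.48 in summer and -0.15 between seasons in MII oocytes, where SOX2 was -1.20. With a replicate block the SOX2 stage difference over both seasons stayed at 0.60, at an unadjusted limma p of 0.110, and the block changed no call of the 3 genes. Same-numbered libraries correlated between -0.441 and 0.764 and not all over 0.1, so the numbers were not taken as pairs. As a hint from the data alone, 4 of 6 numbers in spring against summer MII and 3 of 6 in summer GV against summer MII libraries correlated best with their own number. Depth limits single values most in spring GV replicate 6, where POU5F1, KLF4 and SOX2 had 2, 10 and 24 fragments.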
